A study of Mus musculus with 6 samples.

Results

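The 10 genes described here encode the glucose transporter GLUT1 (*Slc2a1*) and 9 enzymes of the route from glucose to lactate (*Hk1*, *Hk2*, *Pfkl*, *Pfkp*, *Aldoa*, *Pgk1*, *Eno1*, *Pkm* and *Ldha*). They were taken by name as glucose transporter and glycolytic enzyme genes. All 10 were found among the 55367 gene names of the count table.

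GLUT1 carries glucose across the plasma membrane, and hexokinases trap it in the cell by phosphorylation. Phosphofructokinase makes the committed step of glycolysis, aldolase splits the sugar, phosphoglycerate kinase and pyruvate kinase yield ATP, and lactate dehydrogenase turns pyruvate into lactate while restoring NAD+. GLUT1 is the main glucose transporter of epidermal keratinocytes, which are known for a high rate of glycolysis in culture. Several of these genes have processed pseudogenes, which are copies of the spliced mRNA inserted elsewhere in the genome and which can share short sequencing reads with the gene.

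Primary keratinocytes were prepared from the skin of mouse pups at day 2, on a mixed C57BL/6 and 129/Sv background. Both copies of *Ppp1r13l*, the gene of iASPP, were floxed in all cultures, and all carried a tamoxifen-activated Cre expressed from the ubiquitous *Gt(ROSA)26Sor* locus, so that any cell type in a culture could recombine. Each of 3 batches of cells was divided between a culture with tamoxifen (iASPP KO) and a culture without it (iASPP WT), which gave 6 libraries in 3 pairs. The drug was added at a medium change at 24 h, 4 days before the end of culture. The medium contained insulin and EGF in both conditions. The drug concentration is 1 mM in the sample labels and 1 μM in the methods of the study. Because the iASPP-WT cultures received no drug, effects of tamoxifen and of the deletion cannot be told apart. How many pups contributed to a batch is not given in the sources used here.

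Total RNA was depleted of ribosomal RNA and sequenced as single reads of 42 bases, and the deposited values are unnormalized counts per gene name. Totals were 24544822, 23556669 and 22136525 counts in iASPP KO and 21353368, 25157117 and 20202517 counts in iASPP WT, in the order of batches 1, 2 and 3, which is kept for all values by culture. Levels are given as CPM, counts per 1000000 after scaling the libraries by edgeR's TMM method. A limit of 3 counts corresponded to 0.119 to 0.148 counts per 1000000 and covers counting error only.

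The targeted gene was checked first. *Ppp1r13l* (chromosome 7, 19359749 to 19378533, GRCm38) was at 14.3, 17.7 and 5.91 CPM in iASPP KO and at 32.7, 45.1 and 21.0 CPM in iASPP WT. The 2 conditions did not overlap, and the log2 fold change was −1.45 ± 0.18 (standard error, n = 3 pairs; edgeR quasi-likelihood test, Benjamini-Hochberg adjusted p = 0.00296). The counts cover all exons together, so reads from exons outside the deleted exon 8 and incomplete deletion cannot be told apart in the iASPP-KO values.

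The keratinocyte identity of the cultures was checked against markers. *Krt14*, a keratin of basal keratinocytes, ranged from 14958 to 17578 CPM over the 6 cultures, and all 12 keratinocyte markers were tested. *Krt10*, a keratin of differentiating cells, was the 1 marker of this list that passed the threshold, lower in iASPP KO (log2 fold change −1.31, edgeR quasi-likelihood test, Benjamini-Hochberg adjusted p = 0.0330). The 10 fibroblast markers summed to 69.8, 92.7 and 661 CPM in iASPP KO and to 77.2, 84.8 and 867 CPM in iASPP WT, with *Col1a2* as the most abundant and none at 0. Both cultures of batch 3 thus stood apart from those of the other batches, and *Col1a2* and *Col3a1* were the 2 of 10 fibroblast markers that passed the threshold, both lower in iASPP KO (log2 fold changes of −0.55 and −0.87, edgeR quasi-likelihood test, Benjamini-Hochberg adjusted p = 0.0428 and 0.0269). From batches 1 and 2 alone neither was called, although their log2 fold changes were about as large (−0.59 and −0.96). *Pdgfra* was the 1 fibroblast marker called there, higher in iASPP KO (log2 fold change 1.46). The 8 melanocyte markers, led by *Pmel*, summed to 900.5, 434 and 1069.8 CPM in iASPP KO and to 1132, 369 and 1057 CPM in iASPP WT, and none passed the threshold. The 10 leukocyte markers, led by *Cd68*, summed to 67.5, 73.9 and 84.2 CPM in iASPP KO and to 45.7, 61.7 and 68.3 CPM in iASPP WT. *Csf1r* was the 1 leukocyte marker that passed the threshold, higher in iASPP KO (log2 fold change 1.11, edgeR quasi-likelihood test, Benjamini-Hochberg adjusted p = 0.0206), and *Cd3e* was at 0 counts throughout. Markers of endothelium (8 genes, led by *Vwf*), skeletal muscle (12 genes, led by *Mylpf*, with *Myh4* at 0) and red blood cells (7 genes, led by *Hbb-bs*, with *Hba-a2* and *Hbb-bt* at 0) summed to at most 21.5, 8.50 and 1.997 CPM in any culture. In bulk RNA, fewer cells of a type and less RNA per cell cannot be told apart.

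Levels of the 10 genes were first compared with each other per length, as CPM per 1000 bases of exon, over all 6 cultures. *Slc2a1* was the highest with 338 ± 64.7 (SD, n = 6), followed by *Pkm* with 314 ± 34.9 and *Ldha* with 273 ± 69.0. These 3 did not differ beyond their spread. *Aldoa* came next with 154 ± 23.2, and then *Pfkl* with 48.3 ± 10.6 and *Hk2* with 48.1 ± 19.8, which did not differ beyond their spread either. *Pfkp* (13.8 ± 4.37), *Eno1* (13.5 ± 1.69) and *Pgk1* (12.5 ± 3.41) formed a further step within which the values overlapped, and *Hk1* was the lowest with 6.09 ± 1.58. Among the other glycolytic enzymes, *Tpi1*, which interconverts the 3-carbon sugars made by aldolase, reached 178 ± 28.9. *Gapdh*, the enzyme of the next step and the reference gene of the study in qPCR, had only 8.95 ± 1.18 CPM per 1000 bases of exon.

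Low values such as those of *Gapdh*, *Eno1* and *Pgk1* were read together with the number of places in the genome that a read can come from. Reads with several best positions were not counted by the authors. Each annotated main transcript was therefore cut into all its windows of read length, 42 bases, and a window was called shared where the same bases also occur in a transcript of another gene. Shared windows made up 68.1% of *Pgk1* (1215 of 1784) and 74.3% of *Eno1* (1476 of 1986), and in *Pgk1* all 1210 windows that lie within the coding sequence were shared. The share was 40.6% in *Pkm*, 24.1% in *Ldha* and 20.3% in *Aldoa*. It was 1.99% in *Slc2a1*, 0.271% in *Pfkl* and 0 in *Hk1* and *Hk2*. In *Gapdh* it was 83.2%, with 258 pseudogenes holding at least 1 of its windows, and the counts of these pseudogene names summed to 8339, more than the 5047 counts of *Gapdh* itself.

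The stretches below compare *Pkm* with 1 of its pseudogenes. They are 60 bases of coding sequence within 1 exon of *Pkm* (chr9:59668919-59668978, plus strand) and the matching stretch of the pseudogene on its own strand (GENCODE vM21 transcripts, GRCm38). The stretch was chosen to hold no run of equal bases as long as a read, and its longest run is 34 bases. Elsewhere the pseudogene *Gm6560* shares 727 windows of read length with *Pkm*. Capitals mark bases that differ between the gene and the pseudogene.
*Pkm*: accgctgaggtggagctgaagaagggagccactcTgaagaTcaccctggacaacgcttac
*Gm6560*: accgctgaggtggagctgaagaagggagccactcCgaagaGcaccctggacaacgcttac
*Gm6560* (chr5:22725725-22725784, minus strand) differed from *Pkm* by T35C and T41G, counted from the first base of the stretch, and had 2574 counts in all, 1.20% of the 214477 counts of *Pkm*.

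Levels were then set per 1000 windows that are not shared, which leaves out positions that occur in another annotated gene. Of the windows left out, those of *Slc2a1* and *Pfkp* lie at their own locus, in a gene on the opposite strand, so for these 2 genes the level per 1000 windows of any kind applies, which is 368 CPM for *Slc2a1*. In *Pkm*, 128 of the windows left out occur in *Gm49759*, which lies within the *Pkm* locus on the same strand. On the scale of unshared windows *Pkm* was first with 1105 ± 123 CPM (SD, n = 6), then *Ldha* with 689.8 ± 175 and *Aldoa* with 489 ± 73.6, and *Slc2a1* came next with 376 ± 71.9. The order of these 4 was the same per 1000 windows of any kind, so it follows the length of the main transcript used here in place of all exonic bases, not the sharing. Per 1000 unshared windows, however, the single cultures overlapped for *Ldha* (386 to 845 CPM), *Aldoa* (413 to 630) and *Slc2a1* (278 to 447). *Eno1* reached 142 ± 17.8, against 36.5 CPM per 1000 windows of any kind, and moved from place 8 to place 5 among the 10 genes. *Pgk1* had 49.2 ± 13.4 and 15.7 CPM on the same 2 scales, and *Hk1* stayed last with 13.6 ± 3.53. *Gapdh* had 160 ± 21.1 CPM per 1000 unshared windows and 26.8 per 1000 windows of any kind. The order of genes by mean level thus depended on the scale, with *Slc2a1* in place 1 per exonic base and in place 4 per window, whereas a comparison of a gene between cultures did not use it.

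**Figure D1:**
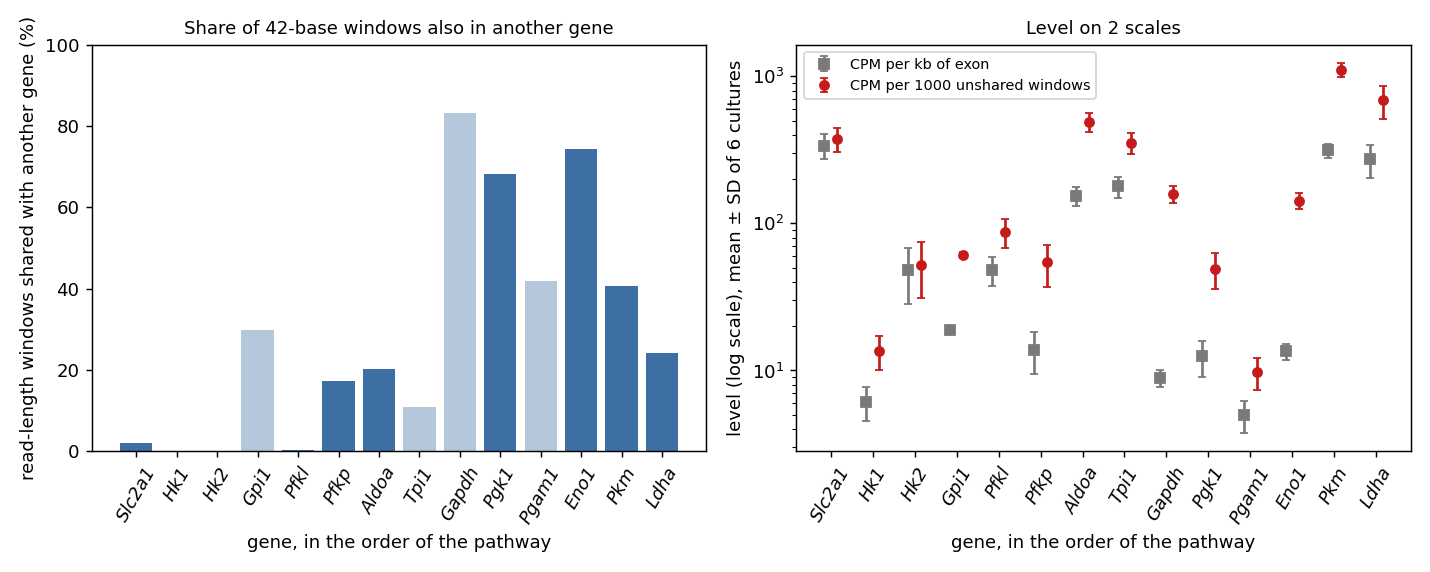
Left, bars give the percent of 42-base windows of the main transcript of each of 14 genes that also occur in another gene, from 0 in *Hk1* to 83.2% in *Gapdh* among the genes shown, with the 10 genes in dark blue and other glycolytic enzymes in light blue. Right, squares give the mean CPM per kb of exon and circles the mean CPM per 1000 unshared windows on a log axis, each ± SD over 6 cultures, and the gap between them is wide for *Gapdh* and *Eno1*.

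Next, iASPP KO was compared with iASPP WT within batches to ask which of the 10 genes differ after loss of iASPP. *Pfkp*, which encodes the platelet-type isozyme of phosphofructokinase, was lower in iASPP KO in every batch, and the other 9 genes did not pass the threshold. All 10 genes had enough counts to be tested. Thus 1 of 10 was called, with 0 higher and 1 lower, where 4.12% of the 14916 tested genes were called (2.17% higher and 1.95% lower). The median log2 fold change of the 10 genes was −0.09 and that of all tested genes 0.01. *Pfkp* and *Pfkl*, both lower, were the 2 of 10 genes under an unadjusted p of 0.05, as were 1292 higher and 1206 lower of all tested genes. DESeq2 called 0 of the 10 higher and 1 lower, where it called 483 higher and 410 lower of the 12121 genes it tested.

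*Slc2a1* (chromosome 4, 119108711 to 119137983) was at 1366, 878 and 1156 CPM in iASPP KO and at 1412, 1343 and 955 CPM in iASPP WT. Its conditions overlapped, with the lowest value in the iASPP-KO culture of batch 2. The log2 fold change was −0.13 ± 0.16 (standard error), with −0.05, −0.61 and 0.28 in the single batches.

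Both hexokinases overlapped between conditions. *Hk2* (chromosome 6, 82725025 to 82774454), the inducible isozyme, was at 389, 283 and 185 CPM in iASPP KO and at 374, 384 and 108 CPM in iASPP WT. Its largest difference was between batches, since both cultures of batch 3 lay under all others. *Hk1* (chromosome 10, 62268855 to 62379908), the isozyme found in most tissues, ranged from 33.2 to 67.4 CPM and was also lowest in batch 3. It was slightly higher in iASPP KO in each batch (0.08, 0.28 and 0.19 on the log2 scale), and the log2 fold change was 0.18 ± 0.13 (edgeR quasi-likelihood test, Benjamini-Hochberg adjusted p = 0.545).

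*Pfkp* (chromosome 13, 6579768 to 6648777) had 3328, 2114 and 3993 counts in iASPP KO and 5396, 5646 and 4735 counts in iASPP WT. These are 148, 94.9 and 169.65 CPM against 253, 232 and 211 CPM. The conditions did not overlap, which held for 1 of the 10 genes and for 10.7% of all tested genes. The log2 fold change was −0.79 ± 0.17 (edgeR quasi-likelihood test, Benjamini-Hochberg adjusted p = 0.0282), with −0.77, −1.29 and −0.31 in the single batches. The call was lost without batch 1 (log2 fold change −0.80, adjusted p = 0.0561 by the same edgeR test with Benjamini-Hochberg adjustment) and without batch 2 (−0.54, adjusted p = 0.190), and the direction was kept in both. The 3′ end of *Pfkp* overlaps that of *Pitrm1*, and 17.2% of its windows were shared with that gene, but the genes lie on opposite strands and the reads were counted by strand. *Pitrm1* had 1764, 1422 and 1401 counts in iASPP KO and 1510, 1597 and 1648 counts in iASPP WT.

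*Pfkl* (chromosome 10, 77986947 to 78010083), the liver-type isozyme and the most abundant phosphofructokinase here, was at 325, 207 and 306 CPM in iASPP KO and at 408, 383 and 305 CPM in iASPP WT. The conditions overlapped, and batch 3 showed almost no difference. Its log2 fold change was −0.40 ± 0.16 (edgeR quasi-likelihood test, Benjamini-Hochberg adjusted p = 0.223), with −0.33, −0.89 and 0.01 in the single batches.

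Among the later enzymes of the pathway, *Pgk1* (chromosome X, 106187100 to 106203699) was at 21.2, 16.4 and 36.1 CPM in iASPP KO and at 32.5, 33.1 and 28.5 CPM in iASPP WT. It was lower in iASPP KO in batches 1 and 2 and higher in batch 3, and its log2 fold change of −0.43 ± 0.23 rests on 365 to 849 counts per library, the fewest of the 10 genes. *Aldoa* (chromosome 7, 126795234 to 126809108) ranged from 484 to 738 CPM and *Eno1* (chromosome 4, 150236721 to 150248879) from 61.2 to 85.6 CPM, both with their lowest value in the iASPP-KO culture of batch 2 and their highest in that of batch 3. Their log2 fold changes were 0.08 ± 0.13 and −0.06 ± 0.13.

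*Pkm* (chromosome 9, 59656368 to 59679375) was at 1712, 1755 and 1597 CPM in iASPP KO and at 1459.6, 1617 and 1282 CPM in iASPP WT. It was a little higher in iASPP KO in all 3 batches (0.23, 0.12 and 0.32 on the log2 scale), but the conditions overlapped and the log2 fold change of 0.22 ± 0.11 did not pass (edgeR quasi-likelihood test, Benjamini-Hochberg adjusted p = 0.329). *Ldha* (chromosome 7, 46841475 to 46855627) was at 967, 505 and 1089 CPM in iASPP KO and at 1107, 771 and 979 CPM in iASPP WT, with a log2 fold change of −0.22 ± 0.14. Both cultures of batch 2 had less *Ldha* than the other 4, and within that batch the difference was −0.61 on the log2 scale.

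**Figure D2:**
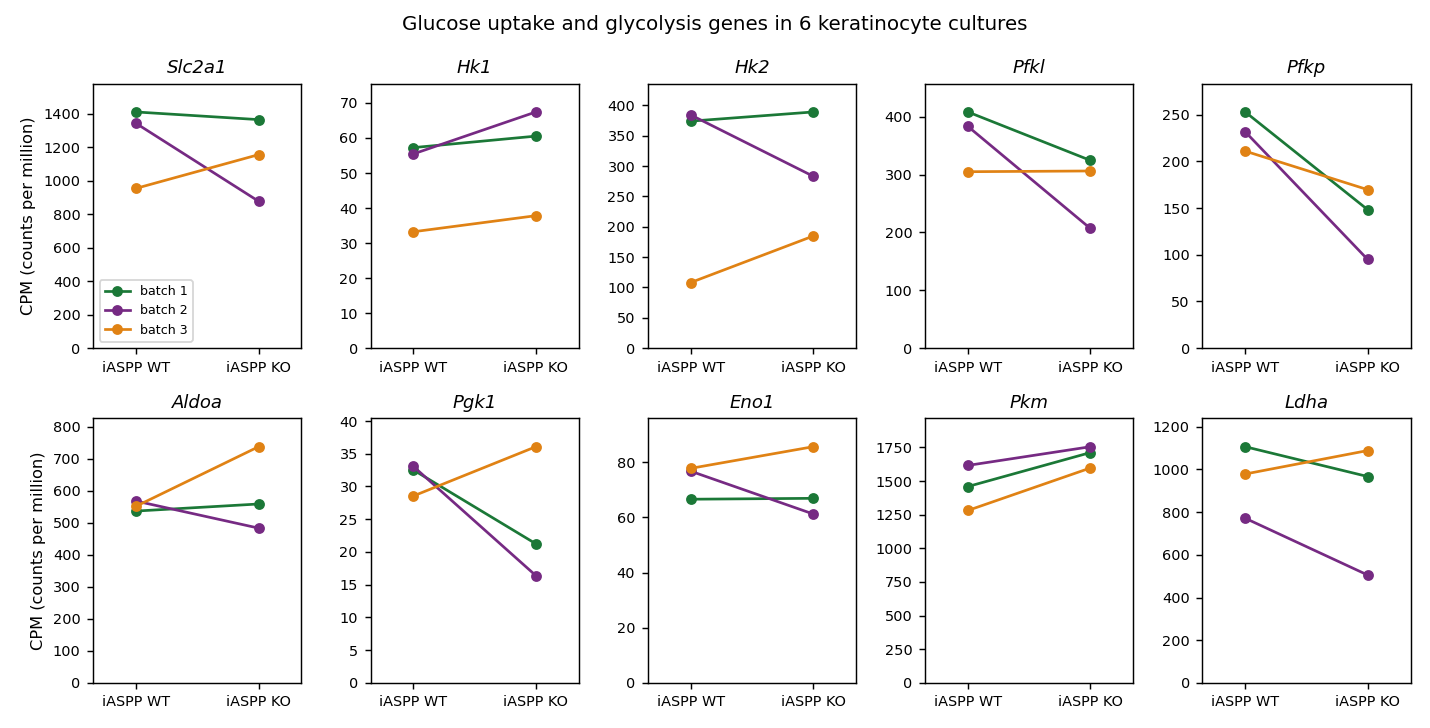
Each panel shows 1 gene, with CPM on the vertical axis and a line from the iASPP-WT to the iASPP-KO culture of each batch. *Pfkp* is the gene whose conditions do not overlap, and in 7 of the 10 panels the line of batch 3 (orange) rises where that of batch 2 (purple) falls.

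The direction was then compared between batches. In batch 2, 8 of the 10 genes were lower in iASPP KO and their median difference was −0.52 on the log2 scale, whereas in batch 3, 9 of 10 were higher and the median was 0.23. Batch 1 lay between, with 5 higher, 5 lower and a median of −0.02. Over all tested genes the medians were −0.01, 0.00 and 0.00 in batches 1, 2 and 3, and 49.5%, 49.7% and 50.3% of genes were higher in iASPP KO. The 3 within-batch differences of a gene had a median SD of 0.42 over the 10 genes, compared with 0.34 over all tested genes and 0.20 over the 5868 tested genes that were at least as abundant as *Pgk1*. Only *Hk1*, *Pfkp* and *Pkm*, 3 of 10 genes, kept 1 direction in all batches, as did 39.3% of all tested genes. With 1 culture per condition and batch, a difference between batches was not tested.

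Batch 3 was the batch with most fibroblast marker RNA, and the comparison without it was among the alternatives fixed for these data. From batches 1 and 2 alone, 5 of the 10 genes were lower in iASPP KO and 0 higher, where 9.53% of 15261 tested genes were called (5.2% higher and 4.34% lower). They were *Pfkp* (log2 fold change −1.03), *Pgk1* (−0.81), *Pfkl* (−0.61), *Ldha* (−0.40) and *Slc2a1* (−0.33), with adjusted p from 1.44e-13 to 0.0446 (edgeR quasi-likelihood test with Benjamini-Hochberg adjustment). *Hk1*, *Hk2*, *Aldoa*, *Eno1* and *Pkm* did not pass. That fit had 1 residual degree of freedom and gave every gene the spread of the abundance trend, so its p-values rest on genes sharing a common spread. Without batch 1 and without batch 2, 0 of the 10 genes were called, where 320 of 15437 and 291 of 15236 tested genes were called. Under an unadjusted p of 0.05 in these fits were 2 and 1 of the 10 genes. Of all tested genes, 946 and 987 were higher and 859 and 879 lower at that limit. Without batch 2, the log2 fold changes of *Pgk1*, *Pfkl*, *Ldha* and *Slc2a1* were −0.13, −0.16, −0.02 and 0.12. Markers of cell types were called in the fit of batches 1 and 2 too. Of 12 keratinocyte markers 3 were lower and 0 higher, with log2 fold changes of −1.80 (*Krt10*), −0.48 (*Krt1*) and −0.39 (*Col17a1*). *Pdgfra* (1.46), *Csf1r* (0.98) and the endothelial marker *Kdr* (1.72) were higher. The part of fibroblasts, of other cell types and of keratinocyte differentiation in these differences was not tested.

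**Figure D3:**
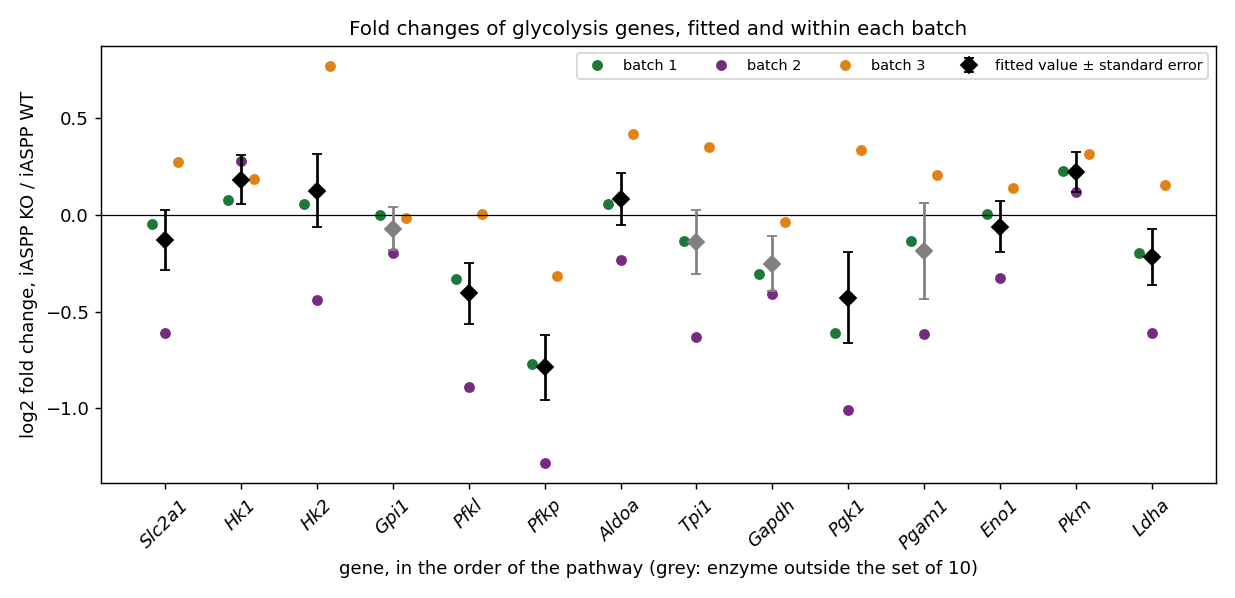
Log2 fold changes of iASPP KO relative to iASPP WT for 14 genes in the order of the pathway, as fitted values ± standard error (diamonds, grey for enzymes outside the 10 genes) and as the difference within each batch (circles). The fitted values run from −0.79 in *Pfkp* to 0.22 in *Pkm*, and batch 2 lies under batch 3 for all genes shown but *Hk1*.

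The balance of isozymes was then compared, as each gene's share of the counts per exonic base of its family. *Pfkp* held 18.0%, 17.6% and 20.2% of the phosphofructokinase counts per exonic base in iASPP KO and 23.0%, 22.8% and 23.9% in iASPP WT. Its share was lower by a similar amount in each batch, −5.06, −5.19 and −3.69 percentage points, and the conditions did not overlap. The mean difference of −4.65 ± 0.83 points (SD, n = 3) had p = 0.25 in an exact paired permutation test, two-sided, which is the smallest p that 3 pairs allow. *Pfkl* held 73.2% to 79.1% in iASPP KO and 69.4% to 75.8% in iASPP WT, and its share was higher by 4.34, 1.29 and 3.84 points. Shares within a family are relative, so this is not a rise of *Pfkl* itself. Its own log2 differences were −0.33, −0.89 and 0.01 in the single batches. *Pfkm*, the muscle type, made up the rest with 1.44% to 6.70%. The fold change of *Pfkp* varied between batches, and that of *Pfkl* varied with it.

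**Figure D4:**
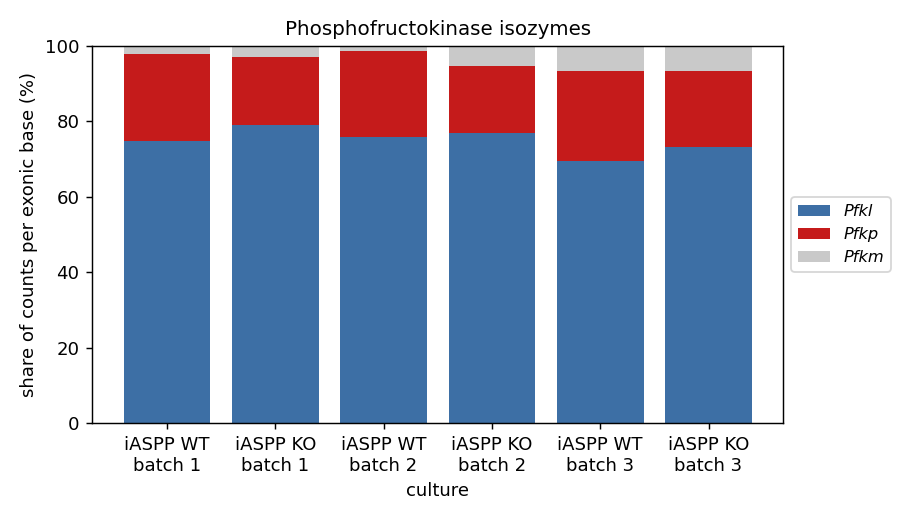
Stacked bars give the percent of counts per exonic base held by *Pfkl* (blue), *Pfkp* (red) and *Pfkm* (grey) in each of the 6 cultures. The share of *Pfkp* is 17.6% to 20.2% in iASPP KO and 22.8% to 23.9% in iASPP WT.

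Hexokinases, lactate dehydrogenases A and B, enolases, and aldolases A and C were the other 4 families compared, and the share of no member among the 10 genes differed in the same direction in all batches. *Hk2* held 80.7% to 89.6% of hexokinase counts per base and *Hk1* 9.02% to 17.3%, with the within-batch differences of *Hk2* at −0.62, −5.63 and 4.81 points. *Ldha* held 96.3% to 98.3% against *Ldhb*, and *Aldoa* 91.0% to 93.9% against *Aldoc*. *Eno1* held 76.6% to 93.7% of enolase counts per base, with 86.0% of its own coding windows shared, which this share does not take into account.

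Counts on copies were small beside those of the genes. Pseudogenes and retrogenes that share a window with *Eno1* summed to 3.31% to 9.59% of its counts over the 6 libraries, and 2 of them held at least 1% of its counts in all, *Eno1b* (3.50%) and *Gm5855* (2.71%). For *Pkm* the copies summed to 0.969% to 1.86%. A further 3.48% lay on *Gm49759*, an unconfirmed transcript annotated within the *Pkm* locus. For *Pgk1*, *Ldha* and *Aldoa* the copies summed to at most 1.72%, 1.07% and 0.375%. With these counts added, *Pfkp* stayed the 1 gene called of 10, and the log2 fold changes of *Eno1*, *Pgk1*, *Pkm* and *Ldha* were −0.03, −0.43, 0.22 and −0.21. Reads with several best positions are in none of these counts.

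Genes of neighbouring pathways were taken from lists of glucose metabolism. Among 117 tested genes of 9 such lists, 1 was higher in iASPP KO and 0 lower, where 2.17% of all tested genes were higher and 1.95% lower. Without adjustment, 8 were higher and 10 lower at p under 0.05 in the same edgeR test, and DESeq2 called 5 higher and 1 lower of 110 tested, where it called 483 higher and 410 lower of all 12121 genes it tested. The gene was *Pgd*, which encodes 6-phosphogluconate dehydrogenase of the pentose phosphate pathway, the route that makes NADPH and ribose from glucose. *Pgd* was at 678, 846 and 168 CPM in iASPP KO and at 410.3, 480.1 and 134 CPM in iASPP WT. Each iASPP-KO culture lay above its own batch, although the conditions overlapped because both cultures of batch 3 were low. Its log2 fold change was 0.62 ± 0.13 (edgeR quasi-likelihood test, Benjamini-Hochberg adjusted p = 0.0239), and the call was lost without batch 1 (0.57, adjusted p = 0.110 by the same test) or batch 2 (0.53, adjusted p = 0.196).

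Of the other genes of the pentose phosphate pathway, the 3 most abundant had values above 0 in every batch without passing in this edgeR fit, and DESeq2 called *Taldo1* and *G6pdx* of them. The less abundant *Pgls* and *Rbks* were also above 0 in every batch without passing, with log2 fold changes of 0.14 and 0.30. *Tkt*, *Taldo1* and *G6pdx*, which encode transketolase, transaldolase and glucose-6-phosphate dehydrogenase, had log2 fold changes of 0.39, 0.46 and 0.46. Their within-batch differences were 0.67, 0.75 and 0.68 in batch 1 and 0.45, 0.52 and 0.61 in batch 2, but 0.04, 0.09 and 0.10 in batch 3. In the other direction, *H6pd*, the enzyme of this pathway in the endoplasmic reticulum, was at 10.9, 13.2 and 13.5 CPM in iASPP KO and at 16.4, 17.9 and 23.7 CPM in iASPP WT. Its conditions did not overlap, but its log2 fold change of −0.62 ± 0.19 did not pass (edgeR quasi-likelihood test, Benjamini-Hochberg adjusted p = 0.114). Of the 11 tested genes of this list 1 was called, 7 had a log2 fold change above 0 and 4 under 0, and the median was 0.14. From batches 1 and 2 alone, *Tkt*, *Taldo1*, *G6pdx* and *Pgd* were the 4 of 11 called, all higher, in a fit that called 5.2% of all genes higher and 4.34% lower. The same fit called 10 genes higher and 10 lower of the 118 tested in the 9 lists.

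The other 8 lists held no gene called in this edgeR fit with all 3 batches, whereas DESeq2 called *Gapdhs* and *Pcx* higher and *Slc2a4* lower. Under other scalings, filters or robust dispersion, edgeR called *Slc2a4* lower too. With no filter beyond 1 count it called more genes of these lists, *Gapdhs* and *Pcx* among them. Of 17 other glycolytic enzymes, *Tpi1* was the most abundant, with −0.14, −0.63 and 0.35 in batches 1, 2 and 3, whereas the medians of the list were −0.001, 0.11 and 0.03. *Gapdh* was at 35.9, 30.8 and 34.5 CPM in iASPP KO and at 44.4, 41.0 and 35.4 CPM in iASPP WT, a log2 fold change of −0.25 ± 0.14 that did not pass. The median of this list was 0.20. Among 10 other glucose transporters (median −0.20), *Slc2a5*, a fructose transporter, was the most abundant with a mean of 37.0 CPM. *Slc2a4*, the insulin-responsive transporter GLUT4, did not pass, with 4.23, 1.17 and 4.46 CPM in iASPP KO and 6.79, 6.36 and 12.5 CPM in iASPP WT. This gene was chosen after its values were seen (log2 fold change −1.497 ± 0.37, edgeR quasi-likelihood test, Benjamini-Hochberg adjusted p = 0.0535).

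The most abundant genes of the remaining lists did not pass. They were *Txnip*, an inhibitor of glucose uptake, among 9 glycolysis regulators (log2 fold change 0.26, list median 0.08), and *Bsg*, the partner of lactate transporters, among 19 genes of lactate and pyruvate handling (0.18, list median −0.05). *Pck2* led 3 tested gluconeogenesis genes (−0.11, list median −0.11) and *Ugp2* 17 glycogen genes (−0.11, list median −0.19). *Psat1*, of serine synthesis, led 11 genes of the hexosamine, serine and glycerol branches (0.03, list median −0.19), and the citrate synthase gene *Cs* led 20 genes of the tricarboxylic acid cycle (0.02, list median 0.03). Among 17 regulators known to act on glycolytic genes, *Hras* was the most abundant (0.10, list median 0.05).

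Hypoxia-inducible factor is a known activator of most of the 10 genes, so 24 tested genes of this factor and of the hypoxia response outside glycolysis were compared too. Of these 4 were higher in iASPP KO and 1 lower, where 2.17% of all tested genes were higher and 1.95% lower, and the list had no common direction (median 0.04). *Ndrg1*, a stress-induced gene, was the most abundant, at 1068, 1229.9 and 445 CPM in iASPP KO and at 650.1, 883 and 192 CPM in iASPP WT. It was higher in every batch, with a log2 fold change of 0.80 ± 0.14. *Vegfa*, *Ero1l* and *Mxi1* were also higher (0.46, 0.60 and 0.59, and 0.0146 to 0.0458 as the range of Benjamini-Hochberg adjusted p of the 4 genes in the edgeR quasi-likelihood test). *P4ha1*, a subunit of collagen prolyl hydroxylase, was at 41.7, 28.4 and 60.5 CPM in iASPP KO and at 93.5, 55.8 and 106 CPM in iASPP WT. It was lower in all 3 batches with a log2 fold change of −0.98 ± 0.13 (edgeR quasi-likelihood test, Benjamini-Hochberg adjusted p = 0.00325), although the conditions overlapped. Without batch 1, *Ndrg1*, *Mxi1* and *P4ha1* were called and *Vegfa* and *Ero1l* were not (adjusted p = 0.204 and 0.0888 by the same edgeR test with Benjamini-Hochberg adjustment). Without batch 2, *Ndrg1* and *P4ha1* were called, and the other 3 kept their direction (adjusted p from 0.0551 to 0.204). From batches 1 and 2 alone, *Epas1*, *Vegfa*, *Ndrg1*, *Ero1l* and *Mxi1* were higher and *Ak4*, *P4ha1*, *P4ha2* and *Kdm3a* lower, 5 and 4 of 24 genes with a median of −0.11, in the fit that called 5.2% of all genes higher and 4.34% lower.

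**Figure D5:**
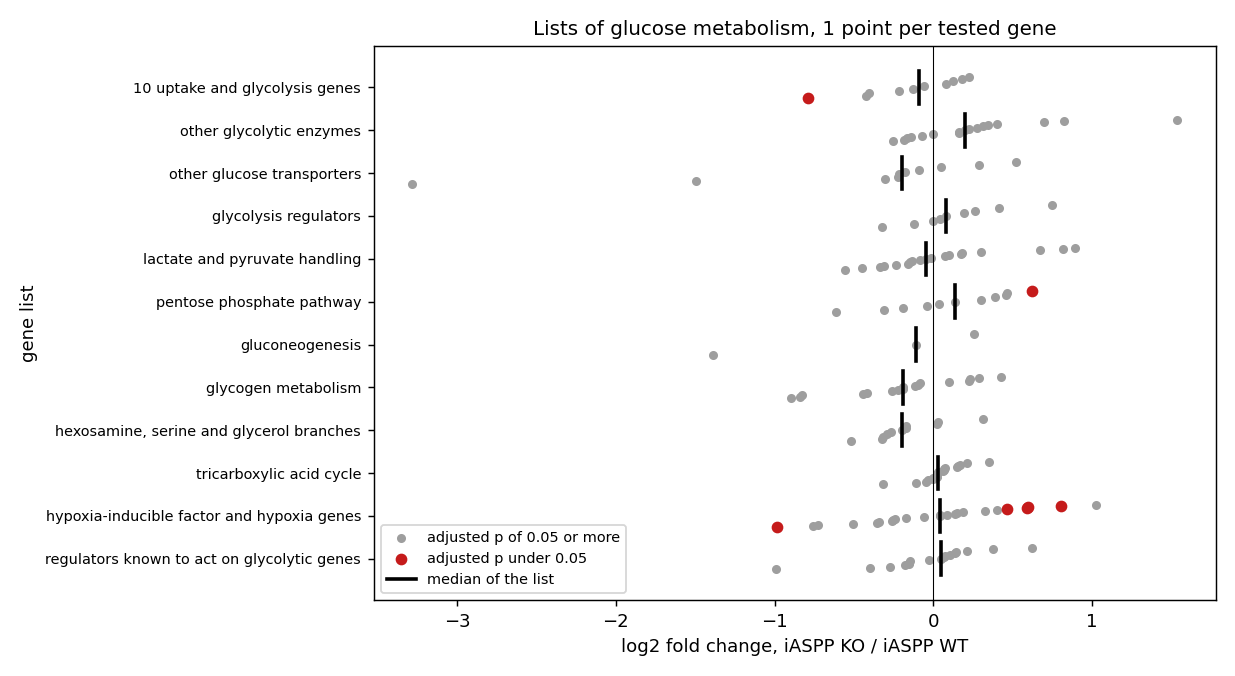
Each point is the log2 fold change of 1 tested gene, arranged by list, with red points for adjusted p under 0.05 and a black bar for the median of the list. Red points are *Pfkp*, *Pgd* and 5 hypoxia genes, and the medians of lists lie between −0.20 and 0.20.

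Finally, genes whose levels followed the 10 genes over the 6 cultures were looked for, as a description. The mean standardized level of the 10 genes was lowest in the iASPP-KO culture of batch 2 (−0.86), next lowest in the iASPP-WT culture of batch 3 (−0.45) and between 0.15 and 0.44 in the other 4. Among 5223 genes outside all lists, the nearest were *Cnot1* (Pearson r = 0.977), *Cd63* (0.969), *Slc20a2* (0.963), *Dnajc11* (0.962) and *Ddrgk1* (0.938), each over 6 cultures. The cultures share batches and libraries, and with so many genes compared a high r is to be found for any profile, so no p was given.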

How the data were processed

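The authors removed adapters with Cutadapt 2.10, aligned reads to GRCm38 with STAR 2.7.3 and deposited raw counts per gene name from featureCounts 2.0.0 (GENCODE vM25 exons, by strand and, per the file header, without the option for reads with several positions, not normalized). A second deposited table holds the authors' fold changes and p-values and was not used here.

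The test was that of edgeR 4.0.16 under R 4.3.3 (filterByExpr, TMM, glmQLFit and glmQLFTest with batch and condition, Benjamini-Hochberg adjustment over all tested genes, threshold 0.05). Values within a batch subtract log2 CPM (prior count 2) of its cultures. Libraries of a batch are paired by the labels, and their deviations from the condition means correlated with r = 0.536, 0.646 and 0.736. Chi-square statistics per gene of 35.4 to 147 between libraries of the same condition showed no duplicated library within a condition. The fit was tested on simulated data with larger changes than that of *Pfkp*, the same dispersion for all genes and batch effects equal in both conditions. Smaller changes, and differences that vary between batches, were not simulated. The alternatives were no batch block, DESeq2 1.42.0, 2 other scalings, 2 other filters, robust dispersion, each batch left out, counts of window-sharing genes added and shares not per length, and, chosen after seeing the data, only pseudogenes and retrogenes added.

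The members and lists were chosen with earlier results of these data known. Named are the 10 genes, the called or else most abundant gene of each list, the most abundant markers of other cell types, *Gapdh*, *Ppp1r13l*, the 5 nearest profiles, and window-sharing genes with at least 1% of a member's counts. The 133 such genes of *Pfkl*, which share at most 10 windows outside its coding sequence, are not named. Keratinocyte markers, called markers of other cell types, *Slc2a4*, *Gapdhs*, *Pcx*, isozymes, further pentose phosphate genes and 4 hypoxia genes called from batches 1 and 2 were named after their values were seen.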

Additional observations from a re-analysis of the deposited data

How the results depend on the processing

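A call needs a spread between only 3 pairs, and the pseudogene counts hold reads with 1 best position only. Without the batch block, 0 genes were called in any group (360 higher and 331 lower of all genes at unadjusted p under 0.05), *Pfkp* was at −0.75 (adjusted p = 0.973, edgeR with Benjamini-Hochberg adjustment) and *Hk2* at −0.016. With no filter beyond 1 count, 624 genes were higher and 491 lower, with 2 of the 10 genes lower (*Pfkl* added), 7 other glucose metabolism genes higher and 4 lower, and 2 hypoxia genes lower. DESeq2 called 5 other glucose metabolism genes higher, and 1 (*Slc2a4*) was lower by DESeq2, RLE, upper-quartile scaling, the filter of 10 counts and robust dispersion. Under these 5 settings *Pfkp* stayed the 1 called of 10. With each batch left out, calls ranged over 169 to 793 genes higher and 117 to 662 lower, 0 to 5 of the 10 genes lower, 0 to 10 other glucose metabolism genes higher and 0 to 10 lower, and 1 to 5 hypoxia genes higher and 1 to 4 lower. Log2 fold changes then ranged from −1.03 to −0.54 for *Pfkp*, and changed sign for *Slc2a1* (−0.33 to 0.12), *Hk2* (−0.19 to 0.42), *Aldoa* (−0.087 to 0.24) and *Eno1* (−0.16 to 0.077). With all window-sharing genes added, *Pfkp* was at −0.58 and still called, whereas *Pfkl* moved from −0.40 to −0.080. Then 1 of the 10 genes, in place of 2, was under an unadjusted p of 0.05 in edgeR. From raw counts not per length, the share of *Pfkp* differed by −6.25 points and that of *Pfkl* by 5.55 points. The cause of these differences was not tested.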
